A study of Sus scrofa with 5 samples.

Results

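Mitochondrial ribosomal protein genes were taken as the genes whose probe sets on the porcine array carry exactly 1 symbol that starts with MRPL or MRPS followed by a digit, with the probe set of the highest mean over all arrays standing for each gene. This gave 58 genes from 77 probe sets, among 6765 genes with 1 symbol and 23999 probe sets in all. By symbol, 36 encode proteins of the large subunit and 22 proteins of the small subunit. The study compared backfat, the subcutaneous adipose tissue of pigs, between animals that differed in the fatty acid composition of their muscle. All 5 animals with an array were females of an Iberian × Landrace backcross (BC1_LD), which carries more Landrace than Iberian genome. The H group (BC4, BC5 and BC6) had more intramuscular polyunsaturated fatty acids, and the L group (BC2 and BC3) had more saturated and monounsaturated fatty acids, in a fat depot other than the one measured here. Sibs were avoided within a group, and both groups had free access to the same cereal feed and were slaughtered at a common age. The remaining L animal, BC1, was not analysed here. Each animal had 1 Affymetrix array, so that n = 3 for H and n = 2 for L, and the number of arrays limits the precision of every value below.

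The mitochondrial ribosome translates the few messages that the mitochondrial genome encodes, which are core subunits of the respiratory chain and of ATP synthase. Its proteins are all encoded in the nucleus, made in the cytosol and imported, and they assemble around ribosomal RNA transcribed in the mitochondrion. Some descend from proteins of the bacterial ribosome and others were gained by mitochondria. In adipocytes, mitochondria supply citrate and reducing power for fatty acid synthesis and also oxidize fatty acids and branched-chain amino acids.

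Values are on a log2 scale, with 1 unit for a doubling of the array signal, and differences are given as H minus L. The scale ends at a floor of 2.17, where 5576 probe sets lay in every animal and where nothing was measured. The 5 array medians lay between 4.21 and 4.29. The adipocyte marker FABP4, a fatty acid carrier, was between 15.36 and 15.49 on all arrays, while ALB, the albumin gene of hepatocytes, was at most 4.69, although the submitters' extraction note names liver. The arrays were therefore taken as backfat, as the tissue label has it, although APOA1, an apolipoprotein of liver, stood between 11.29 and 12.57. ADIPOQ, the adipocyte hormone adiponectin, varied far more, at 12.20, 9.09 and 10.92 in the H animals BC4, BC5 and BC6, against 11.82 and 10.52 in the L animals BC2 and BC3. It was lowest in BC5 and highest in BC4 and BC2. The log2 of the summed signal of the 3 measured adipocyte markers was between 15.56 and 15.70 on all arrays. Skeletal muscle markers were highest in BC5, and their summed signal was next highest in BC3. MYL1, a myosin light chain, was at 2.93, 7.53 and 2.58 in the H animals BC4, BC5 and BC6, against 2.59 and 5.43 in the L animals BC2 and BC3, and the log2 of the summed signal of the 5 measured muscle markers was 5.39, 8.93 and 4.93 in H, against 5.16 and 7.15 in L. The same sum over 3 macrophage markers was highest in BC6, at 8.12, 8.22 and 10.11 in H, against 8.93 and 9.24 in L. Over 5 endothelial markers it was highest in BC5, at 13.41, 14.07 and 13.19 in H, against at most 13.54 in L. In RNA from whole tissue, fewer cells of a type and less RNA per cell cannot be told apart.

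Most mitochondrial ribosomal protein genes were well above the floor. The median level over the 58 genes was 8.04, against 7.15 over all 6765 genes taken with 1 probe set each. Within an array, the median member stood at the 77.9, 76.0 and 76.9 percentile of all probe sets in BC4, BC5 and BC6 of the H group, against 80.6 and 78.9 in BC2 and BC3 of the L group. On each array, 56 of the 58 lay above the array's median. The exceptions were MRPS23, which encodes a small subunit protein without a bacterial counterpart and was at 2.24 on all arrays, and MRPL24, whose bacterial counterpart lines the exit tunnel of the nascent peptide, at 3.77 over the 5 arrays. The next lowest were MRPS12, of the decoding centre, at 5.02, MRPS28 at 5.25 and MRPL4 at 5.92. The highest values were those of MRPS21 (10.75), MRPL3 (10.57), MRPL53 (10.44), MRPL15 (10.22) and MRPL30 (10.10). Probes bind with different strength, so these levels set no order of abundance between genes.

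**Figure D1:**
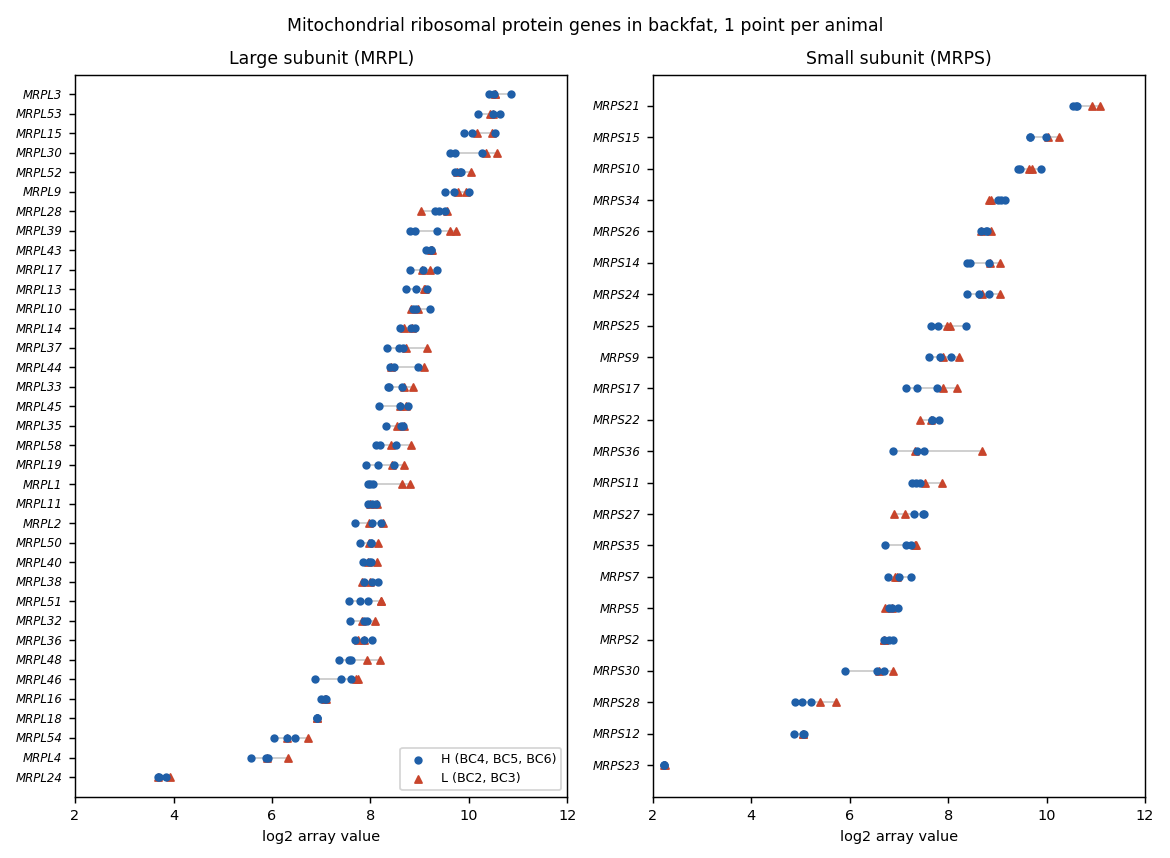
Array values (log2) of the 58 mitochondrial ribosomal protein genes, large subunit at left and small subunit at right, sorted by mean. Each point is 1 animal, blue circles for H and red triangles for L, and the grey line spans the 5 animals. Most genes lie between 6 and 10, and the animals of a gene lie close together compared with the distance between genes.

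The question of the design is whether genes differ between H and L animals. For mitochondrial ribosomal protein genes, the mean of H was below the mean of L in 45 of 58 genes (77.6%) and above it in 12, and 1 gene had the same value on all arrays. Over all 6765 genes, 43.0% had a lower mean in H. Among genes whose values varied, these shares were 78.9% for the mitochondrial ribosomal proteins and 49.8% for all genes. The differences were small. Their median was -0.13, which is 8.81% less signal in H, with the middle part of the genes between -0.36 and -0.02, while the median over all genes was 0. The most negative difference was -0.76 and the most positive 0.42, and 37 of the 58 genes differed by less than 1.2-fold.

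None of the 58 genes passed the test, which asked for a fold difference of 1.2 together with an adjusted p of 0.1 and a p-value of 0.01 in limma over all probe sets (0% of the 23999 probe sets passed). The smallest adjusted p was 0.69, for MRPL1. At an unadjusted limma p under 0.05 there were 6 genes with a lower mean in H (10.3%, against 1.58% of all probe sets) and 2 with a higher mean (3.45%, against 1.6% of all probe sets). Of all probe sets, 26.8% had 1 value on every array and could not reach this p, against 1 of the 58 genes. This lowers the shares over all probe sets. In a fit without them, 829 of 17556 probe sets reached this p in either direction, and the gene counts were again 6 and 2. In 54 of the genes all 5 values were distinct. Among these, all 3 H animals were below both L animals in 15 (27.8%, against 9.38% of the probe sets with distinct values) and above both in 4 (7.41%, against 11.5%). The genes of an array share the animal, so that these counts do not rest on independent genes. The count of 6 was 10 without BC4 and 3 without BC6, and the count of 2 was 1 without BC4 and 0 without BC6. Over all probe sets, in either direction, 871 reached this p without BC4 and 1013 without BC6, against 762 on all 5 arrays. Without BC2, which leaves 1 L animal, both counts fell, although more of all probe sets reached this p. The count of 15 was 23 without BC2, 28 without BC3 and 27 without BC4. The count of 4 was 8 without BC3 and 7 without BC5. Fewer arrays make it easier for groups not to overlap. No share over all probe sets is at hand for fewer arrays, so these counts cannot be set against the shares above.

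**Figure D2:**
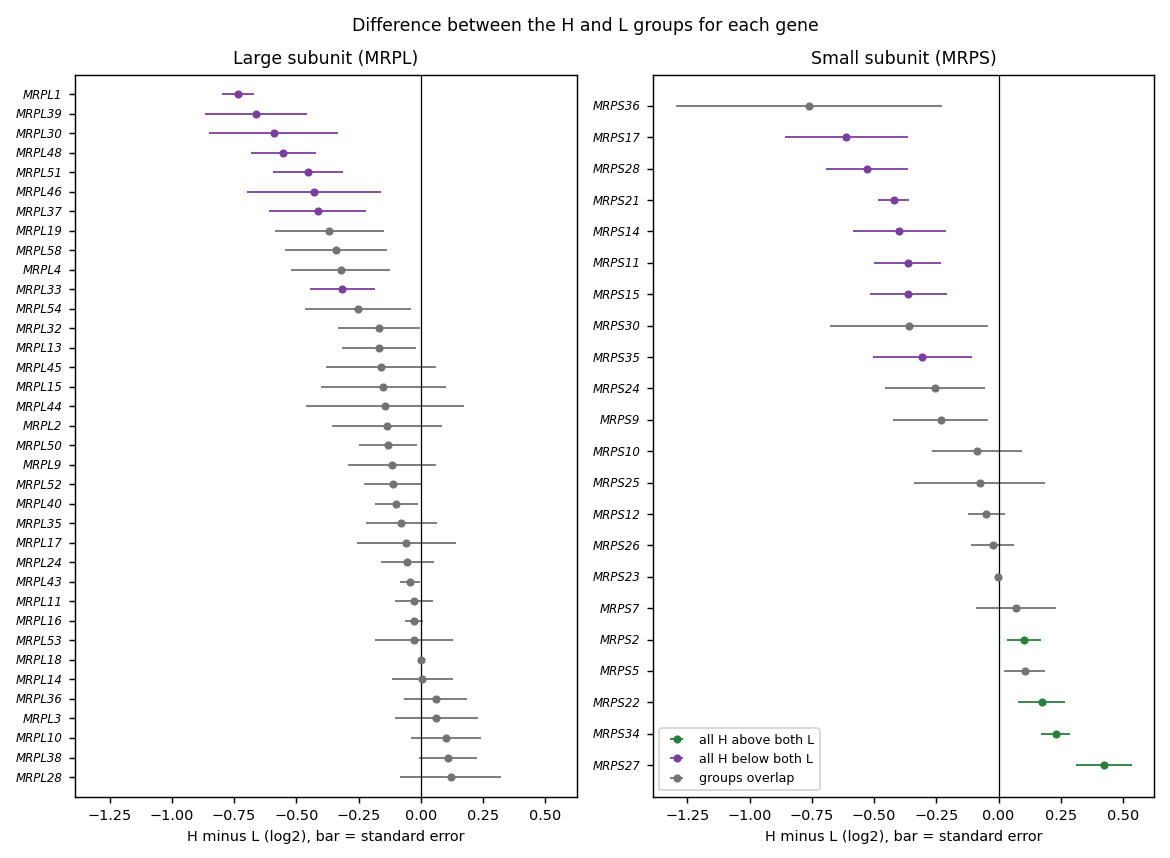
Difference between H and L (log2) for each of the 58 genes, with a bar of 1 standard error from limma, large subunit at left and small subunit at right. Purple marks genes with all 3 H animals below both L animals (15 genes), green those with all H animals above (4 genes, all of the small subunit), and grey the genes whose groups overlap or share values. None of the differences passed the adjusted test.

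In the large subunit, 29 of 36 genes had a lower mean in H and 6 a higher one, with a median difference of -0.13. MRPL1, whose bacterial counterpart forms the stalk beside the exit of the spent tRNA, had log2 values of 8.04, 7.98 and 7.95 in the H animals BC4, BC5 and BC6, against 8.80 and 8.65 in the L animals BC2 and BC3. The H animals lay close together and all well below both L animals. The H mean was 7.99 ± 0.0465 (SD, n = 3) and the L mean 8.73 ± 0.110 (SD, n = 2). The difference of -0.73, with a standard error of 0.064, had an adjusted p of 0.69 in limma. Without BC3, MRPL1 was the only one of the 58 genes to pass the test (difference -0.81, adjusted p = 0.0806 from limma), as did 1.19% of all probe sets, with the spread of BC2 taken to be that of the H animals.

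MRPL48, a mitochondria-specific protein of the central protuberance, was at 7.61, 7.57 and 7.36 in H, against 8.19 and 7.94 in L. All H values were below both L values, and the difference was -0.55 (limma adjusted p = 1, standard error 0.130). MRPL39, which has a domain related to a tRNA synthetase, was at 9.35, 8.81 and 8.91 in H, against 9.62 and 9.74 in L. The groups did not overlap, with BC4 nearest to L, and the difference was -0.66 (limma adjusted p = 1, standard error 0.206). MRPL51 was at 7.96, 7.56 and 7.79 in H, against 8.22 in both L animals, a difference of -0.45 (standard error 0.141). MRPL30, the counterpart of a bacterial protein of the same number, had 10.26, 9.61 and 9.71 in H, against 10.56 and 10.34 in L. Here BC4 lay close below BC3, and BC5 and BC6 stood apart from the other animals (difference -0.59, standard error 0.259). Groups did not overlap either in MRPL37 (-0.42), MRPL46 (-0.43), another protein of the central protuberance, and MRPL33 (-0.32). The difference of MRPL37 was -0.20 without BC2 and -0.63 without BC3, and that of MRPL46 was -0.22 without BC5.

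Further large subunit proteins of known place or role, chosen after their values were seen, had groups that overlapped. MRPL11, at the base of the stalk that recruits translation factors, differed by -0.03 and MRPL10, which anchors that stalk, by 0.10. MRPL2, near the site of peptide bond formation, differed by -0.14 (standard error 0.220), and MRPL3 by 0.06. At the tunnel exit, MRPL45, which faces the inner membrane, differed by -0.16 (standard error 0.219), and MRPL44, which is related to ribonuclease III, by -0.14 (standard error 0.316). The H mean of MRPL44 (8.61) was below BC2 (9.085) but above BC3 (8.43), so its direction turned without BC2. MRPL58, a peptidyl-tRNA hydrolase of the release factor family that became part of the ribosome, had 8.51, 8.11 and 8.20 in H, against 8.82 and 8.42 in L, and BC4 of H lay above BC3 of L (difference -0.34, standard error 0.204). It was -0.14 without BC2 and -0.54 without BC3.

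In the small subunit, 16 of 22 genes had a lower mean in H and 6 a higher one, with a median difference of -0.16. MRPS21, the counterpart of a bacterial protein near the messenger RNA path, was at 10.59, 10.53 and 10.63 in H, against 10.93 and 11.08 in L. The H animals were again close together and below both L animals, and the H mean was 10.58 ± 0.0481 (SD, n = 3), against an L mean of 11.00 ± 0.105 (SD, n = 2). The difference of -0.42, with a standard error of 0.0625, had an adjusted p of 1 in limma. MRPS28 was at 5.21, 4.89 and 5.02 in H, against 5.73 and 5.40 in L, without overlap (difference -0.53, standard error 0.164). MRPS17 was at 7.36, 7.77 and 7.15 in H, against 8.18 and 7.89 in L. In this gene BC5, low in most others, was the highest of the H animals and close to BC3 (difference -0.61, standard error 0.247). MRPS11 (-0.37), MRPS14 (-0.40), MRPS15 (-0.36) and MRPS35 (-0.31) also had all H values below both L values. MRPS11 differed by -0.19 without BC2, and MRPS35 by -0.15 without BC5.

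The 4 genes with all H animals above both L animals were all of the small subunit, and 2 genes were left with this order after median centring or quantile normalization. MRPS27, a pentatricopeptide repeat protein that mitochondria added to the ribosome, was at 7.50, 7.31 and 7.49 in H, against 6.90 and 7.13 in L. It differed by 0.42 (standard error 0.112) with an adjusted p of 1 in limma. MRPS34, also without a bacterial counterpart, was at 9.16, 9.01 and 9.08 in H, against 8.88 and 8.83 in L, a smaller difference with little spread (0.23, standard error 0.0581). MRPS22, another such protein, had 7.81, 7.67 and 7.67 in H, against 7.44 and 7.65 in L. Its separation from BC3 was within a few hundredths of a unit. In MRPS2 the separation was smaller still, at 6.886, 6.792 and 6.694 in H, against 6.691 and 6.688 in L. The difference of MRPS22, 0.17, was 0.06 without BC2 and 0.28 without BC3, and that of MRPS2, 0.10, was 0.05 without BC4. MRPS5, at the entrance of the messenger RNA, differed by 0.11 with overlap, and by 0.04 without BC2, 0.17 without BC3 and 0.05 without BC5.

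Large and small subunit genes were close in their median difference. The most positive difference was 0.12 in the large and 0.42 in the small subunit. The large subunit median minus the small subunit median was 0.03, and over all alternatives it ranged from -0.11 without BC3 to 0.10 without the 40% dimmest probe sets or without members near the floor. Symbols are not a full guide to the subunit, since MRPS30 is a large subunit protein in the mammalian structure and MRPS36 is now known as a component of the 2-oxoglutarate dehydrogenase complex. With MRPS30 counted in the large subunit and MRPS36 left out, the medians were -0.14 over 37 large subunit genes and -0.08 over 20 small subunit genes. Genes with a bacterial counterpart and genes without one were likewise close, with medians of -0.12 (24 of 33 lower in H) and -0.11 (17 of 21 lower). The other 4 genes, which were not classed, were MRPL58, MRPS28, MRPS30 and MRPS36, and all had lower means in H.

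The animals within the H group differed from each other as much as the groups did. Each gene's mean over 5 arrays was subtracted from its values, and the median deviation over the 58 genes was 0.06 in BC4, -0.18 in BC5 and -0.08 in BC6, against 0.10 in BC2 and 0.03 in BC3 of the L group. BC4 thus lay between both L animals, apart from the other H animals. Of the 54 genes with distinct values, BC5 was the lowest animal in 27 and BC6 in 15, whereas BC2 was the highest in 23, BC4 in 14 and BC3 in 12. Over all genes whose values varied, the median deviation was between -0.02 and 0.01 on each array.

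Setting animals side by side gave the same picture. Over the 57 genes that varied, BC4 exceeded BC5 in 47 genes, by a median of 0.24, and BC6 in 46, by 0.17, although the 3 animals belong to the same group. Against the L animals, BC4 was lower than BC2 in 34 genes, by a median of 0.09, and lower than BC3 in 28 genes and higher in 29, with a median difference of 0.01. BC5 was lower than BC2 in 44 genes and lower than BC3 in 46, and BC6 was lower than BC2 in 38 and lower than BC3 in 40. BC2 was above BC3 in 31 genes and below it in 26, with a median difference of 0.003, and the median size of their difference, regardless of sign, was 0.18. The median difference between H and L was -0.24 without BC4 and -0.06 without BC5. BC5, the lowest animal for these genes, also had the highest summed level of the skeletal muscle markers and of the endothelial markers. Of the latter, VWF was higher in BC3 (11.04) than in BC5 (10.76). The muscle sum was next highest in BC3, at 7.15, while BC3 had a median deviation of 0.03 over the mitochondrial ribosomal protein genes. BC5 had the lowest level of ADIPOQ but the highest of FABP4 (15.49) and LIPE (12.40), the other measured adipocyte markers. The part of these markers in the result was not tested.

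**Figure D3:**
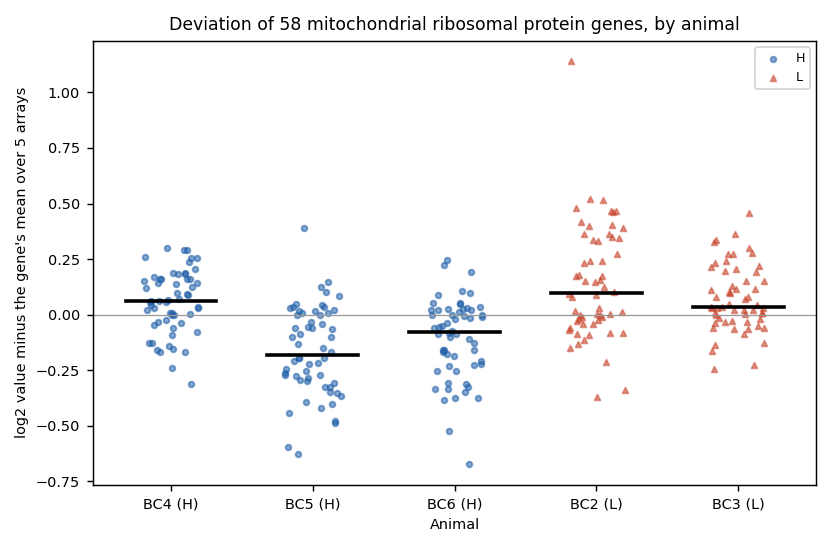
Deviation of each of the 58 genes from its own mean over 5 arrays (log2), by animal, with a black bar at the median. H animals are blue and L animals red. The medians of BC5 (-0.18) and BC6 (-0.08) lie below 0, while that of BC4 (0.06), also of the H group, lies with those of BC2 (0.10) and BC3 (0.03).

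The spread over animals was of ordinary size. The median SD over the 5 arrays was 0.21, or 0.22 over the genes that varied, against 0.24 over all genes that varied. MRPS36 had the largest SD (0.680) and also the most negative difference. It was at 7.51, 7.36 and 6.88 in H, against 8.70 and 7.33 in L. BC2 alone was high, and BC3 was below 2 of the H animals, and the difference of -0.76 (limma adjusted p = 1, standard error 0.535) was -0.08 without BC2 and -1.45 without BC3. MRPL39 (SD 0.417), MRPS17 (0.416), MRPL30 (0.415), MRPL1 (0.407) and MRPS30 (0.373) followed, and the groups of all but MRPS30 did not overlap. Apart from MRPL18, with a single value on all arrays, the smallest SDs above the floor were those of MRPL16, 0.0391 around a level of 7.07, MRPL43 (0.0456), MRPL11 (0.0781) and MRPS12 (0.0791). Some of these values repeated between arrays. MRPL16 was at 7.10 in BC6 and BC3. MRPS12 was at 5.05 in BC5, BC2 and BC3, and a further probe set of it at 4.92 on all arrays. Whether such values measure a steady level was not tested.

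For 14 of the genes a further probe set was annotated to the same symbol, and these did not always give the same picture. In MRPL33, the brighter probe set was at 8.65, 8.37 and 8.37 in H, against 8.69 and 8.87 in L. The dimmer one was at 8.28, 8.15 and 8.79 in H, against 7.81 and 7.82 in L. Both separated the groups, in opposite directions (-0.32 and 0.59), so the direction of MRPL33 depends on the probe set. MRPL46 differed by -0.43 in its brighter probe set and by 0.05, with overlap, in a dimmer one. The brighter probe set of MRPL18 had the same value, 6.92, on all 5 arrays and so measured no difference, while the dimmer one was at 5.52, 5.20 and 5.68 in H, against 5.78 and 6.06 in L (-0.46). For MRPS9 the brighter probe set overlapped (-0.23), and the dimmer was at 6.08 in all 3 H animals, against 6.33 and 6.56 in L (-0.36, adjusted p = 1 from limma). Both probe sets of MRPL2 were lower in mean in H (-0.14 and -0.18).

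**Figure D4:**
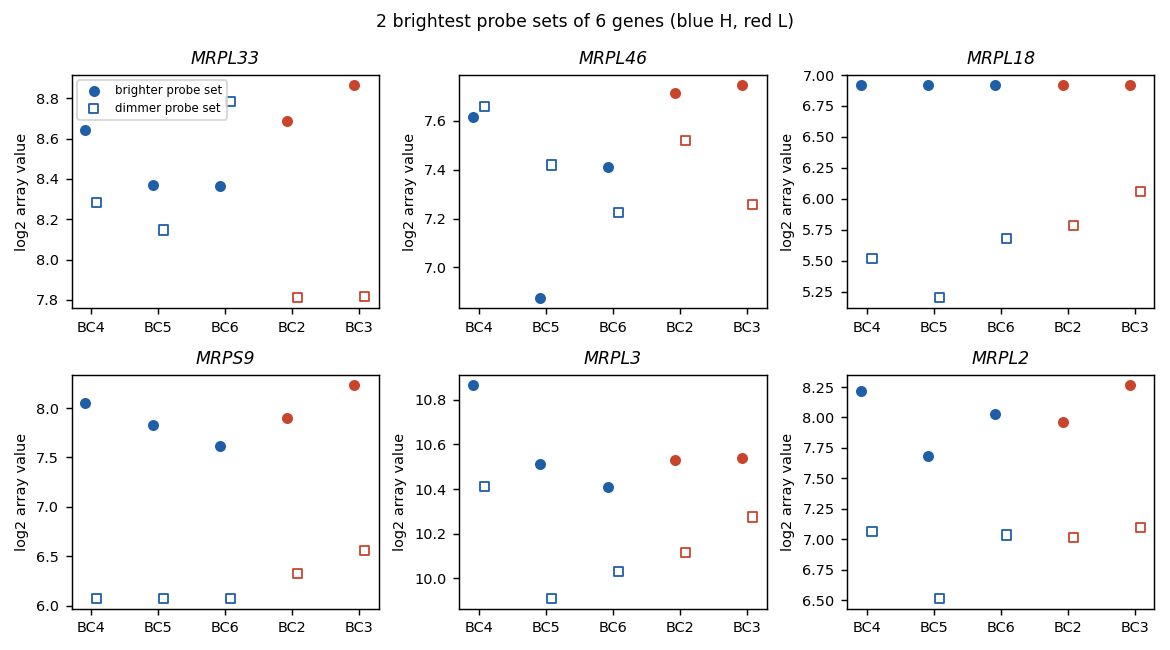
Values (log2) of the brighter (filled) and dimmer (open) probe set of 6 genes in each animal, blue for H and red for L, with a scale of its own in each panel. In MRPL33 the dimmer probe set is higher in all H animals (difference 0.59) and the brighter one lower (-0.32), and in MRPL18 the brighter probe set is at 6.92 on every array.

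Of 7 further mitoribosomal proteins whose genes carry other symbols, 4 were measured. PTCD3, a pentatricopeptide repeat protein of the small subunit like MRPS27, was at 6.54, 6.63 and 6.78 in H, against 6.25 and 6.33 in L. All H animals were above both L animals, as for MRPS27 (difference 0.36, limma adjusted p = 1, standard error 0.0873). CHCHD1 (-0.18), GADD45GIP1 (-0.34) and DAP3 (-0.25), a GTP-binding protein of the small subunit, had lower means in H. DAP3 differed by -0.12 without BC2 or BC6 and by -0.38 without BC3, without BC3 GADD45GIP1 differed by -0.19, and without BC5 CHCHD1 by -0.12.

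Among 10 listed translation factors of mitochondria, 7 were measured, 6 of them with a lower mean in H and a median difference of -0.25, which was -0.03 without BC2. The elongation factors TUFM (-0.36), GFM1 (-0.36) and TSFM (-0.24) had groups that overlapped, and TUFM and GFM1 differed by -0.03 and -0.02 without BC2 and by -0.70 each without BC3. GFM1 differed by -0.18 and TSFM by -0.12 without BC5. MRRF, which recycles the ribosome after termination, was at 7.43, 7.51 and 7.61 in H, against 7.75 and 8.08 in L, without overlap (difference -0.40, standard error 0.133, and -0.23 without BC3). MTRF1L, a release factor that reads stop codons, was the exception, at 6.75, 6.57 and 6.64 in H, against 6.36 and 6.13 in L (difference 0.41, limma adjusted p = 1, standard error 0.104).

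Genes that charge mitochondrial tRNAs and genes that assemble the ribosome had no common direction. Of 11 aminoacyl-tRNA synthetases and transamidation factors on the array, 5 were higher in mean in H, 4 lower and 2 did not vary. Of the last, NARS2 was at the floor on all arrays and so was not measured. IARS2, the isoleucyl-tRNA synthetase, was at 8.48, 8.49 and 8.46 in H, against 8.76 and 8.87 in L, with little spread within either group. It differed by -0.34 (standard error 0.0405) with an adjusted p of 0.879 in limma. GATC, of the complex that forms glutaminyl-tRNA, differed by -0.37 without overlap. Of 14 measured assembly factors, 8 were higher in mean in H and 6 lower. MALSU1, which binds the large subunit during its assembly, was at 9.60, 9.50 and 9.62 in H, against 10.04 and 9.85 in L (difference -0.37, standard error 0.0808). MTERF3, which in mice is needed for ribosome assembly, was at 8.99, 8.85 and 9.11 in H, against 8.70 and 8.42 in L (difference 0.42, standard error 0.135). No gene of these lists passed the test.

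The products of the mitochondrial ribosome join nuclear-encoded subunits of oxidative phosphorylation. In all, 58 genes of nuclear-encoded subunits were measured, among them SDHA, SDHB, SDHC and SDHD of succinate dehydrogenase, which holds no such product. In 54 of them (93.1%, against 43.0% of all genes and 49.8% of all genes that varied) the mean of H was lower, with a median difference of -0.34. All H animals were below both L animals in 24 of the 56 with distinct values (42.9%, against 9.38% of such probe sets). The median difference was -0.15 without BC2 and -0.56 without BC3, with 49 and 55 genes lower. Their median deviation was 0.02 in BC4, -0.24 in BC5 and -0.18 in BC6, against 0.42 in BC2 and 0.02 in BC3. As for the mitochondrial ribosome, BC5 and BC6 were lowest and BC4 was level with BC3. Of 62 genes of the cytosolic ribosome on the array, 33 had a higher and 28 a lower mean in H, and RPS15A was at the floor throughout. Their median difference was 0.01. Their median deviations were -0.03, 0.06 and -0.02 in the H animals, against -0.06 and 0.06 in the L animals, and BC5 was among the highest. The count of lower means was 49 without BC2, 41 without BC5 and 14 without BC3, so these genes had no steady direction. None of these genes passed the test. All lists were measured on the same 5 arrays.

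**Figure D5:**
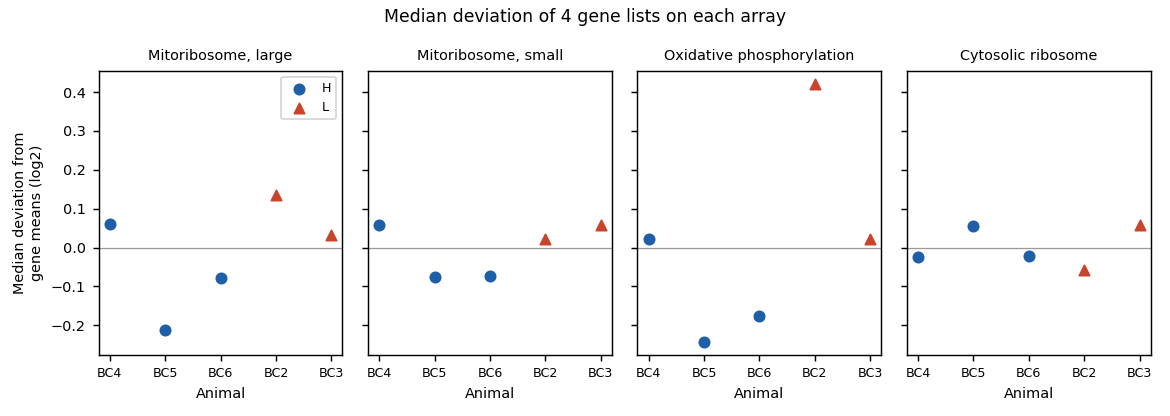
Median deviation (log2) of the genes of 4 lists from their means over 5 arrays, for each animal, H in blue and L in red. BC5 and BC6 lie below 0 for both subunits of the mitochondrial ribosome and for oxidative phosphorylation, and BC2 reaches 0.42 for oxidative phosphorylation, while the cytosolic ribosome stays between -0.06 and 0.06.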

How the data were processed

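Backfat RNA of 5 pigs was hybridized to Affymetrix GeneChip Porcine arrays. The deposited log2 values had been adjusted for background, normalized between arrays and summarized per probe set by the authors. The methods name GCRMA and the processing notes RMA, so the method is not settled. The labels give animal names only, and the groups follow from the study's table of animals. They name no batch.

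From the table, 124 controls were left out and 23999 probe sets tested with limma 3.58.1 in R 4.3.3, H minus L, with Benjamini-Hochberg adjustment over all of them. P-values set each difference against the spread between these animals within the groups. Of the 58 genes, 57 matched a RefSeq gene of the same symbol by gene ID. RefSeq lists 19 more such genes, not analysed here. The steps were tested on simulated data. The genes and lists were chosen with earlier results of these data known. Genes were named for the highest and lowest levels, the smallest p-values in each direction, the largest and smallest SD, probe sets of differing direction and special roles, and for each other list the smallest p-values. Not every gene so chosen is printed, and those given for their place in the ribosome or their translation role were added after their values were seen. As alternatives, the dimmest 40% of probe sets were removed, and the threshold, scaling, variance model, array weights and choice of probe set were varied, besides leaving out members near the floor and leaving out each animal. Leaving out probe sets with 1 value on all arrays, and leaving animals out of the other gene lists, were chosen after seeing the data.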

Additional observations from a re-analysis of the deposited data

How the results depend on the processing

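No paired analysis was possible because no number is shared between H and L animals. No gene passed the test under any alternative except when BC3 was left out, so that leaving out animals gave 0 to 1 genes. Leaving out 1 H animal, genes at an unadjusted limma p under 0.05 were 3 to 10 with a lower mean in H and 0 to 2 with a higher one. All probe sets at this p, in either direction, were then 869 to 1013, against 762 on all arrays. Leaving out any 1 animal, genes without overlap were 16 to 28 lower and 4 to 8 higher, with no share over all probe sets at hand. The large minus small subunit difference was then -0.109 to 0.076. Over the other alternatives this difference was -0.054 to 0.099, the lowest with subunits taken from the structure. Without the 40% dimmest probe sets, 1 gene with a higher mean had an unadjusted p under 0.05. With median centring, 2 genes were higher in H without overlap, and 2 with quantile normalization. A lower mean in H was found for 39 to 47 genes over all alternatives, and the median difference ran from -0.24 to -0.06. Of 434 values for 31 of the named genes, 7 turned direction. This count leaves out some named genes, among them MRPL2, MRPL10, MRPL11, MRPL44 and MRPL45. Each of these also turned direction when 1 animal was left out, MRPL10 and MRPL45 only barely. MRPL33 turned to 0.14 with the mean of its probe sets and 0.59 with the probe set of the largest SD. MRPL53 turned to 0.013 with array weights and ran from -0.124 to 0.093 when 1 animal was left out. In the same way MRPL3 ran from -0.073 (without BC4) to 0.153 and MRPS12 from -0.085 to 0.012 (without BC4). The cause was not tested. The 3 arrays against 2 limit the precision of every difference.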

Other observations

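Genes that act upstream of the mitochondrial ribosome were measured only in part. Of 13 listed genes of mitochondrial transcription and genome maintenance, 4 were measured. TFAM, which packages and transcribes the mitochondrial genome, was at 10.21, 9.83 and 9.82 in H, against 9.79 and 9.67 in L. All H animals were above both L animals, though BC6 and BC2 differed by a few hundredths of a unit (difference 0.22, limma adjusted p = 1, standard error 0.163). Without BC4 the difference of TFAM was 0.09. TEFM, the mitochondrial transcription elongation factor, was at 6.03, 5.79 and 6.18 in H, against 6.80 and 6.23 in L (difference -0.51, limma adjusted p = 1, standard error 0.244). That of TEFM was -0.23 without BC2 and -0.80 without BC3. Of the regulators of mitochondrial biogenesis, PPARGC1A, a coactivator, was at the floor of 2.17 on all 5 arrays and so has no measured level. PPRC1, a coactivator of the same family, was at 6.57, 6.62 and 7.17 in H, against 6.11 and 6.34 in L, without overlap (difference 0.57, limma adjusted p = 1, standard error 0.249). It was 0.37 without BC6. MYC was at 8.78, 8.92 and 10.68 in H, against 8.94 and 10.39 in L, so that BC6 and BC3 were high and the groups overlapped.

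A further probe set of MRPL52 had the smallest p-value among all probe sets of the 58 genes, with an adjusted p of 0.494 in limma, but on values of 3.11 in all 3 H animals, against 3.16 and 3.15 in L. The difference of -0.04 is far under the fold limit of 1.2, and the brighter probe set of this gene, at 9.71, 9.84 and 9.82 in H, against 9.75 and 10.05 in L, overlapped.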
